A study of Caenorhabditis elegans with 4 samples.

Results

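The regions described here are the stretches of chromosome IV where tagged SKN-1 chromatin exceeded input chromatin and whose midpoint lies in 1 of the 2 published piRNA gene domains of that chromosome. The left domain runs from 4.5 to 7.0 Mb and the right domain from 13.5 to 17.2 Mb on the WS180 build. They were chosen by position alone. There were 358 of them, 157 in the left domain and 201 in the right, of 1408 listed regions on chromosome IV and 7714 in all. The other 1050 regions of chromosome IV are called the rest of IV. No listed region crossed a domain border.

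All libraries came from Caenorhabditis elegans strain OP178, as fed hermaphrodite larvae of the first stage (L1) grown at 20 °C. The strain has the unc119(ed3) background and the transgene wgIs178, made by bombardment, which carries skn-1 with TY1, EGFP and FLAG tags together with an unc119 copy. The ChIP group (2 libraries, goat antibody against GFP) and the input group (2 libraries of unprecipitated chromatin) therefore share the genotype, and no strain without the transgene is among them. Whole larvae were used, so no cell type can be assigned to a region. The deposited list merges the replicates, and the labels do not say whether these came from separate cultures. It holds no value of a single library, so the replicate spread is unknown, and every interval below covers counting error or the spread along the chromosome.

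SKN-1 is a transcription factor related to the mammalian Nrf proteins. It is known for switching on detoxification and oxidative stress genes in the gut and, in the early embryo, for specifying the mesendoderm. Worm piRNAs are short RNAs that guide the Argonaute protein PRG-1 in the germ line to silence transposons and other foreign sequence. Most of their genes are tiny separate transcription units crowded into 2 broad domains of chromosome IV, between and within ordinary protein-coding genes. In the RefSeq gene table of assembly WBcel235, 14714 of the 15363 genes of biotype piRNA (95.8%) are on chromosome IV, where they make up 74.7% of the 19704 genes. That table is on another build than the list, so it was used for names and gene order only, and no region was assigned to a gene and no sequence was read.

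In the full list, SKN-1 regions were sparser in both piRNA domains than in the rest of IV. For the left domain this was not shown at the stricter rank limits or without its step from 5.0 to 5.5 Mb, as given below. The left domain held 62.8 regions per Mb and the right domain 54.3 per Mb, against 93.5 per Mb in the rest of IV. Together the domains hold 25.4% of the regions of IV on 35.6% of the 17.43 Mb that lie between its outermost regions. Every listed region passed the authors' q limit of 0.01, as did 54.0% of the 14281 regions that the q values imply were tested over all chromosomes. That selection made the members, so their being listed says nothing about them.

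Counted in windows of 100 kb, the left domain had a mean of 6.28 ± 4.13 regions per window (SD, n = 25 windows), the right domain 5.43 ± 3.39 (n = 37) and the rest of IV 9.31 ± 3.82 (n = 111 full windows). In a quasi-Poisson regression over the 175 windows of IV, the density of the left domain was 0.672 times that of the rest of IV (95% interval 0.535 to 0.844, Benjamini-Hochberg adjusted p = 0.00295 over 8 contrasts, n = 175 windows). That of the right domain was 0.581 times that of the rest (0.473 to 0.714, adjusted p = 4.22e-06, n = 175). A difference between the domains was not shown: the left over the right was 1.16-fold (0.870 to 1.54, adjusted p = 0.421 over 4 contrasts, n = 175). The model allows for uneven counts through a dispersion of 1.83, but not for likeness between neighbouring windows, so these p values may be too small. Against only the stretches of equal length on either side, the fold of the left domain was 0.664. For the right domain it was 0.573 against such a stretch before it, and the chromosome end after it was not used.

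**Figure D1:**
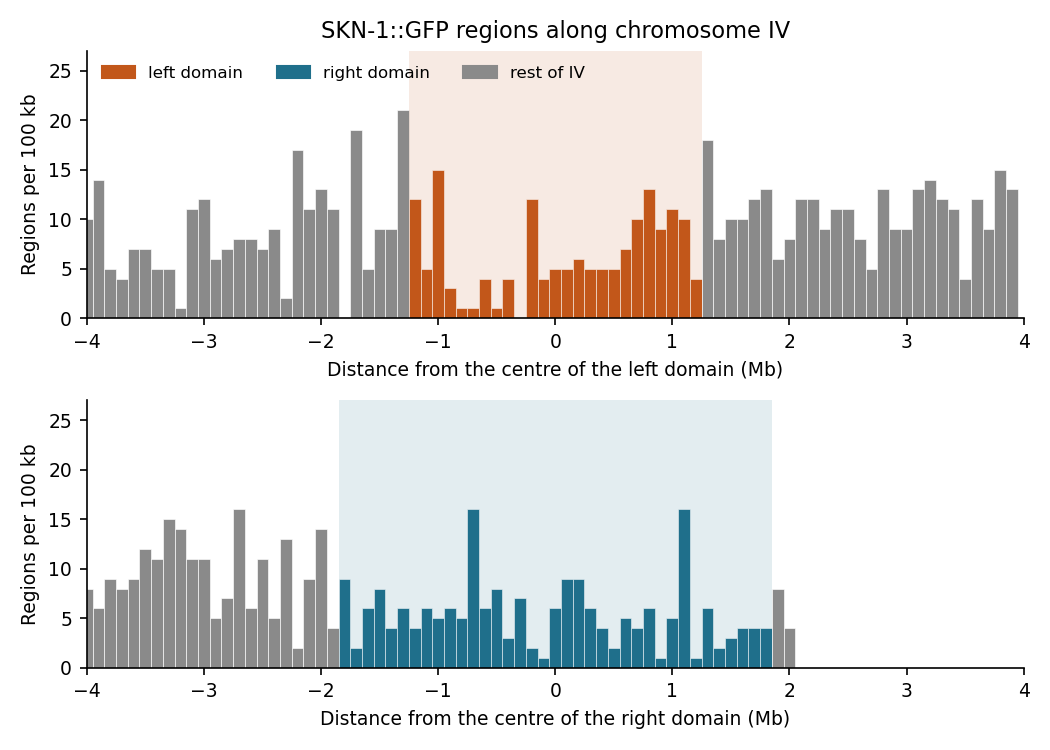
Regions per full 100 kb window of chromosome IV, plotted by distance from the centre of the left domain (top) and of the right domain (bottom), in Mb. Shading marks the domain; bars are coloured by domain or rest of IV. The left domain has a trough near its middle left, and most windows of the right domain hold 4 to 6 regions.

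The windows of the right domain were low along nearly the whole of their length. Their quartiles were 4 and 6 regions with a median of 5, against 7 and 11.5 with a median of 9 in the rest of IV. Only 2 of the 37 windows (5.41%) reached 10 regions, against 50 of 111 (45.0%) in the rest. These 2 windows, at 14600001 to 14700000 and 16400001 to 16500000, held 16 regions each. No window of the right domain was empty.

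In steps of 500 kb the right domain held 29, 27, 38, 25, 26, 32 and 16 regions from 13.5 to 17.0 Mb, and 8 in the last 200 kb. All 7 full steps lay under the median of 47 of the 21 full steps that lie wholly in the rest of IV, and 4 lay under the lowest of these, which was 28. The sparsest step was that from 16.5 to 17.0 Mb. It contains the longest stretch of chromosome IV without a region, 154 kb from 16502271 to 16656098. With each step left out in turn, the fold of the right domain stayed between 0.545 and 0.619, and the largest adjusted p was 0.000111.

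The left domain was uneven. From 4.5 to 7.0 Mb its steps of 500 kb held 36, 10, 32, 32 and 47 regions, and 4 of the 5 lay under the median of the rest of IV. The step from 5.0 to 5.5 Mb, with 10 regions, was the sparsest of all full steps of IV. No listed region from 5.0 to 6.0 Mb had fewer than 49 ChIP tags, whereas regions with 22 were listed elsewhere in the left domain. What part this has in the low count of the step was not tested, and no fit left out that whole stretch. The last step, from 6.5 to 7.0 Mb, equalled the median of the rest. Without the step from 5.0 to 5.5 Mb the left domain stood at 0.786 times the rest of IV and no longer passed (adjusted p = 0.0945, n = 170 windows). Without any of the other 4 steps it passed, at 0.588 to 0.669. Of its 25 windows, 7 (28%) held 10 or more regions, and the densest, at 4700001 to 4800000, held 15.

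**Figure D2:**
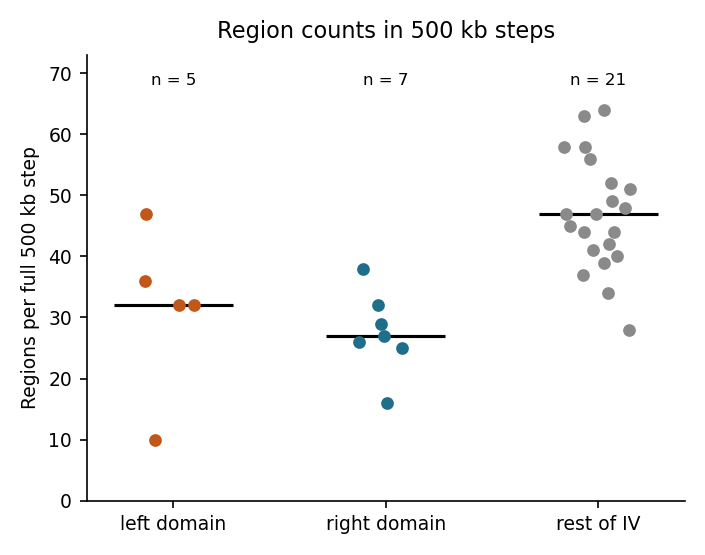
Number of regions in each full 500 kb step of chromosome IV from 0.5 to 17 Mb that lies wholly in the left domain, the right domain or the rest of IV; points are steps and black lines medians (32, 27 and 47). The ranges of the groups overlap: 10 to 47, 16 to 38 and 28 to 64.

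Long stretches without a region were frequent in both domains. Of the 10 longest on chromosome IV, 5 were in the left domain, 2 in the right and 3 in the rest. The longest of the left domain ran for 143 kb from 5395004 to 5537966, and others of 125 kb (5209710 to 5334602) and 122 kb (4968980 to 5091258) lay close before it. There were 11 such stretches of at least 50 kb in the left domain and 22 in the right, against 21 in the rest of IV, which is 11.2 Mb long. A sparser set has longer stretches without a region by construction, so these counts are no finding beyond the density. They were not tested, and the limit of 50 kb was set with the data in view.

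Members still lay close to each other. Another midpoint lay within 2 kb of 58 of the 157 left domain regions (36.9%) and of 67 of the 201 right domain regions (33.3%), against 460 of the 1050 in the rest of IV (43.8%). The median distance to the nearest neighbour was 3.33 kb in the left domain and 3.51 kb in the right, against 2.44 kb in the rest. A sparser set has wider spacing by construction, so these shares add nothing to the density and were not tested.

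The counts were lower inside than outside at all 4 borders. At the left border of the left domain, the 500 kb inside held 36 regions and the 500 kb outside 63. At its right border the counts were 47 inside and 58 outside. The left border of the right domain had 29 inside and 42 outside. At the right border, near the end of the chromosome, the 500 kb inside held 17 regions and the 285 kb outside, up to the last region of IV, 22. The window just before the left domain, at 4400001 to 4500000, was the densest of IV with 21 regions.

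The borders are round positions, and the regions just inside and just outside them were as follows, with no test. The first region of the left domain, at 4506658 to 4506917, had 53 ChIP tags against 23 scaled input tags, a ratio of 2.30 (95% exact interval 1.35 to 4.35), and the nearest before it, at 4484622 to 4484835, a ratio of 6.00 (2.59 to 17.3) on 48 ChIP tags. Its last, at 6956815 to 6956975, had a ratio of 2.17, and the nearest after it, at 7012742 to 7013170, one of 3.36. In the right domain the first region, at 13500419 to 13500609, had a ratio of 3.36, against 3.18 at the nearest before it (13453544 to 13453863). The last, at 17120654 to 17120733, had 2.80, against 3.38 at the nearest after it (17205902 to 17205951).

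On the other chromosomes, stretches at the same places did not fall as far below their surroundings. The stretch from 4.5 to 7.0 Mb held 1.03 times the density of the remainder on I, 1.23 times on II, 1.03 times on III, 1.04 times on V and 0.888 times on X, against 0.672 on IV. A stretch of 3.7 Mb as far from the last region as the right domain is stood at 0.764 on I, 1.26 on II, 1.09 on III, 0.753 on V and 0.960 on X, against 0.581 on IV. The right ends of I and V were thus sparse as well, though less so. This comparison was added after the data were seen and has no test. Whether piRNA genes, the arm of the chromosome or another feature of these stretches goes with the low density was not tested.

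Among the strongest regions the right domain was again sparser than the rest of IV, and no deficit was shown for the left domain. The share of members with q under 1e-10 was 28% in the left domain (44 of 157) and 15.9% in the right (32 of 201), against 18.7% in the rest of IV (196 of 1050). Over all chromosomes 18.6% of the listed regions (1437 of 7714) reached that q, which is 10.1% of the 14281 tested regions. Per Mb there were 17.6 such regions in the left domain and 8.65 in the right, against 17.4 in the rest of IV. In the regression, at this limit chosen after the data were seen, the left domain stood at 1.01 times the rest of IV for these regions (0.708 to 1.44, adjusted p = 0.961, n = 175 windows) and the right domain at 0.496 times (0.331 to 0.743, adjusted p = 0.00623). In the best-ranked 3857 regions of the whole list, the left domain was at 0.852 and did not pass (adjusted p = 0.377, n = 175 windows), and the right at 0.558 (adjusted p = 7.37e-05). The right domain therefore had fewer regions at every rank limit tried, whereas the deficit of the left domain passed in the full list and not in the stricter ones. Whether the domains differ from each other at these limits was not tested.

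The enrichment of a member, once listed, was much like that of a region elsewhere on IV. ChIP and scaled input tags were worked out from the q values. The median ChIP to input ratio was 2.81 in the left domain (quartiles 2.28 and 3.46) and 2.93 in the right (2.27 and 3.65), against 2.66 in the rest of IV (2.17 and 3.38). The medians behind these were 87 ChIP and 36 scaled input tags in the left domain and 67 and 24 in the right, against 76 and 32 in the rest. Regions with few tags enter the list only at high ratios, so the test compared regions at equal input tags. By least squares on log2 ratios with errors clustered by 100 kb, the left domain was 1.07 times the rest (1.01 to 1.13, adjusted p = 0.0480, n = 1405 regions) and the right 1.02 times (0.960 to 1.08, adjusted p = 0.587). The first call did not hold in 5 of 6 alternatives, among them the fit without the widest region (1.06-fold, adjusted p = 0.0674, n = 1404). The ratio exceeded 4 at 19 left domain regions (12.1%) and 35 right domain regions with a single tag solution (17.6%), against 154 in the rest of IV (14.7%) and 11.5% in the whole list. The factor that scales input differs by chromosome, from 1.321 on IV to 1.705 on II, so the share in the whole list is a looser comparison.

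**Figure D3:**
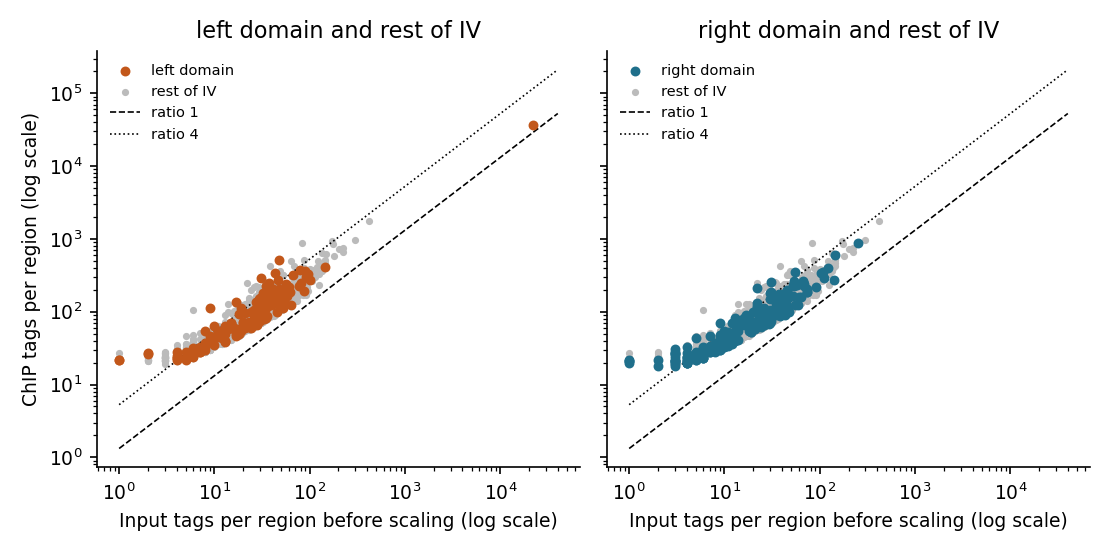
ChIP tags against input tags before scaling for each region with a single tag solution, both axes logarithmic, for the left domain (left panel) and the right domain (right panel) over the rest of IV in grey; dashed and dotted lines mark ratios of 1 and 4, and inputs of 0 are drawn at 1. Both domains lie within the cloud of the rest of IV except for the widest region, at 21922 input tags.

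Member regions were also about as wide. Median widths were 305 bp in the left domain (quartiles 157 and 418) and 303 bp in the right (137 and 457), against 336 bp in the rest of IV (173 and 473). The fitted folds over the rest of IV were 0.911 for the left domain (0.754 to 1.10, adjusted p = 0.377) and 0.894 for the right (0.715 to 1.12, adjusted p = 0.377, n = 1408 regions), by least squares on log2 widths. In the best-ranked 3857 regions, however, those of the left domain were narrower than those of the rest of IV, at 0.717-fold (0.556 to 0.924, adjusted p = 0.0277, n = 688). In no other alternative was the width of the left domain called. The rank depends on the number of tags, and no listed region from 5.0 to 6.0 Mb had fewer than 49 ChIP tags, whatever its width. What part this has in the narrower widths was not tested. Regions of at least 1000 bp numbered 5 in the left domain and 7 in the right (3.18% and 3.48%), against 62 in the rest of IV (5.90%). Regions under 100 bp numbered 27 in the left domain and 37 in the right (17.2% and 18.4%), against 175 in the rest (16.7%).

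**Figure D4:**
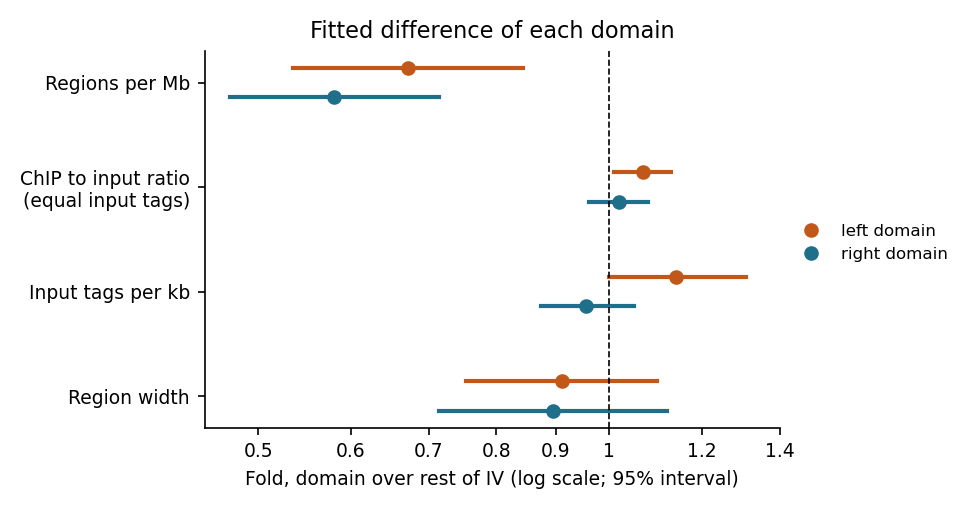
Fitted fold of each domain over the rest of IV (log axis) with 95% intervals, for regions per Mb, ChIP to input ratio at equal input tags, input tags per kb and region width; left domain above right domain in each pair. Density lies below 1 in both domains; the interval of the left domain's ratio starts at 1.01, and the other intervals reach or cross 1.

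One left domain member was unlike all others. The region at 5642233 to 5676117 was 33885 bp wide, whereas the next widest member of the left domain had 1400 bp. It had 36257 ChIP tags against 28959 scaled input tags, so ChIP exceeded scaled input by 25.2%, the smallest excess of any region of IV with a single tag solution. It made up 40.5% of the length covered by left domain regions, 67.1% of their ChIP tags and 82.1% of their scaled input tags. Its input density was 643 tags per kb before scaling, 10.9 times the median of the other left domain regions of at least 250 bp and 12.1 times that of the rest of IV. The highest value of any other region of IV of that width was 125. Its ChIP density, at 1060 tags per kb, was 4.83 times the median of the other left domain regions.

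The summed values of the left domain rest on this region. With it, the left domain had 54014 ChIP tags and a summed ratio of 1.53 (95% exact interval 1.51 to 1.56). Without it, the domain had 17757 ChIP tags and a summed ratio of 2.84 (2.75 to 2.93), beside 2.70 (2.61 to 2.78) in the right domain and 2.65 (2.61 to 2.68) in the rest of IV. These intervals cover counting error and not the spread between regions, so they do not compare the stretches. The least squares fit over regions, without the widest, put the left domain at 1.06 times the rest (adjusted p = 0.0674, n = 1404). The covered length was 83.6 kb with the widest region (3.34% of the domain) and 49.7 kb without it (1.99%), beside 68.8 kb (1.86%) in the right domain and 411 kb (3.66%) in the rest. Counts and medians can hardly move when a single region is removed: without it the density was 62.4 per Mb, the median ratio 2.83 and the median width 299 bp. The density fold was 0.668 without it, with adjusted p = 0.00258 (n = 175 windows). That fit kept the windows around the widest region, so whether the fold depends on the surrounding stretch was not tested.

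The skn-1 gene itself is on chromosome IV in the RefSeq table, and 71 of the 100 genes next to it in gene order are piRNA genes, a share no higher than the 74.7% over all genes of IV. All libraries come from worms that carry additional skn-1 sequence in the transgene. Whether the widest region contains skn-1 was not tested, since gene positions on WS180 were not used here.

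Input was also higher at the listed regions around this one. It is known at listed regions only, so the medians do not give the input of the whole stretch. From 5.0 to 6.0 Mb, the median over the 18 other regions of at least 250 bp was 81.9 input tags per kb, 1.54 times the 53.0 of the rest of IV, and 17 of the 18 lay above that median. The median ChIP density was 309 tags per kb, 1.83 times that of the rest of IV (169). The other left domain regions had 55.8 input and 200 ChIP tags per kb. The medians of the 500 kb steps in the rest of IV ran from 41.2 to 65.4 input tags per kb, all below the 84.8 and 82.8 of the steps from 5.0 to 5.5 and 5.5 to 6.0 Mb, and those of the right domain from 44.7 to 65.7. The median of 84.8 rests on 4 regions, and that of 82.8 on 15, the widest region among them. The nearest regions on either side, at 5607352 to 5607698 and 5731663 to 5731921, had 87.8 and 82.8 input tags per kb and ratios of 2.98 (2.19 to 4.22) and 2.84 (2.01 to 4.25). This stretch was picked out after its values were seen and has no test. It holds 42 of the 157 left domain regions and 15 of the 44 with q under 1e-10. None of the 42 had fewer than 49 ChIP tags, whereas regions with 22 were listed elsewhere in the left domain. What part this has in the higher tag densities, or in the lower number of regions per Mb of the left domain, was not tested. At equal ratio q falls with the number of tags, and what part this has in the count of strong regions was not tested. Over the whole left domain, input tags per kb were 1.14 times those of the rest of IV (1.00 to 1.31, adjusted p = 0.0945, least squares with clustered errors, n = 872 regions), and in the right domain 0.956 times (0.874 to 1.05, adjusted p = 0.377).

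**Figure D5:**
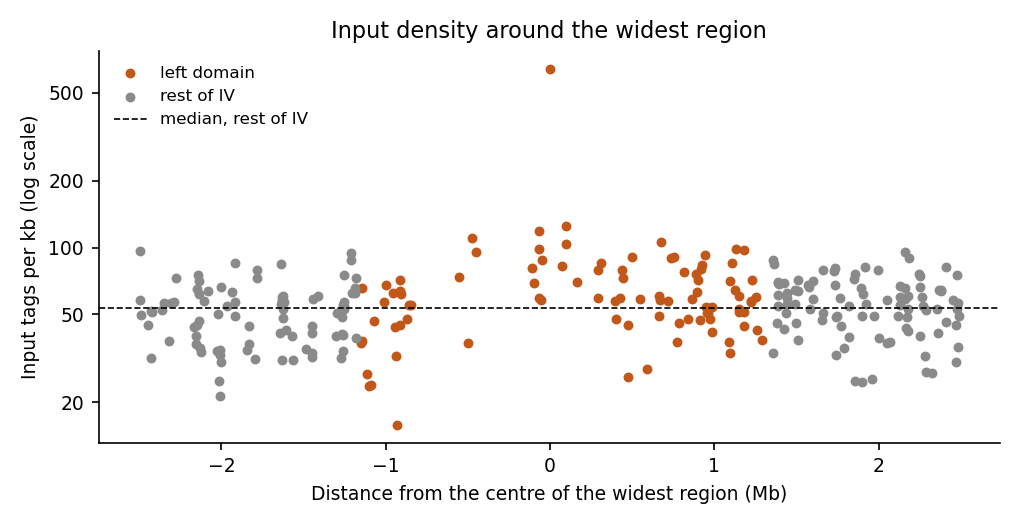
Input tags per kb before scaling (log axis) of regions of at least 250 bp, by distance in Mb from the centre of the widest region; orange points are left domain regions, grey points the rest of IV, and the dashed line the median of the rest of IV, 53.0. The widest region stands at 643, and most points within 0.5 Mb of it lie above the line.

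Apart from the widest region, the left domain regions with the smallest q were wider than most members, and 3 of the 4 had ratios of 6.00 or more. The region at 6909904 to 6910487 (584 bp) had 511 ChIP tags against 63 scaled input tags, a ratio of 8.11 (6.10 to 11.3) and rank 31 of the whole list. It also had the highest ratio among the left domain regions with at least 20 input tags. Near it, at 6919298 to 6919971, was a region with a ratio of 5.0 (3.54 to 7.29) on 245 ChIP tags. With 292 ChIP tags, 4788314 to 4788764 reached a ratio of 7.12 (4.92 to 10.7), and 4749813 to 4750308, with 342, one of 6.00 (4.38 to 8.47). These 2 lie in the densest window of the domain. Further on, 6321576 to 6322090 stood at a ratio of 4.81 (3.41 to 7.19). The smallest q also included 6755926 to 6756844, with 376 ChIP tags and a ratio of 3.58 (2.82 to 4.65). The intervals of the 3 highest ratios overlap, so these tags do not settle which is the highest.

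In the right domain the smallest 2 q belonged to wider regions of lower ratio. The region at 14032372 to 14034750, the widest of the domain with 2379 bp, had 893 ChIP tags against 336 scaled input tags, a ratio of 2.66 (2.31 to 3.07) and rank 70. The region at 16491147 to 16492899 (1753 bp) followed with 605 ChIP tags, a ratio of 3.20 (2.66 to 3.87) and rank 93. It lies in the second of the windows with 16 regions, close before the 154 kb stretch without any. The next by q were narrower: 14463946 to 14464468 with a ratio of 4.77 (3.60 to 6.49), 15472298 to 15472750 with 6.20 (4.26 to 9.32) and 16863455 to 16863819 with 7.17 (4.76 to 12.1). The last of these had the highest ratio of the domain among regions with at least 20 input tags, on 215 ChIP tags, and a neighbour at 16865488 to 16865881 had 4.61 (3.14 to 6.98). The region at 15036940 to 15037439, with 4.53 (3.09 to 6.97), completed the 5 highest ratios. In each domain 3 regions were among the 5 first by both measures. The 100 regions with the smallest q, of 7714 in the whole list, included 3 of the 157 left domain regions and 2 of the 201 in the right. They included 11 of the 1050 regions in the rest of IV. Without the widest region, 2 were in the left domain. These counts are small and were not tested.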

How the data were processed

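The authors' deposited list gives 7714 regions with chromosome, start, end and a q value, for ChIP against input. Per the file headers, positions are on WormBase WS180 and the caller is PeakSeq. Not given in the sources used here are aligner, depth, caller version and settings, and how replicates were merged. The members, lists and tests were chosen with earlier results of these data known.

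Tags were obtained from q: q equals p × 14281 / (rank + 1), and each p is a binomial tail (probability 0.5) for a pair of whole numbers, taken as ChIP and scaled input tags from knowledge of PeakSeq's test. A single pair matched at 7710 regions (3 regions of IV, 2 of them in the right domain, were left out of tag values). Input tags before scaling are the scaled tags divided by 1.321, the factor whose rounded-up multiples hold 98.1% of the values on IV, rounded down. In the fit of the ratio, inputs of 0 (5 regions) were set to 1. Input density is tags per kb of width plus 200 bp, for widths of at least 250 bp. Intervals of ratios are exact (Clopper-Pearson). They cover counting error only, since PCR copies are not independent molecules. Summed ratios use input tags times the factor.

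Density was fitted by quasi-Poisson regression on windows, and ratio, input density and width by least squares on log2 values with errors clustered by window, over all of IV (Python 3.11.15, NumPy 2.4.6, SciPy 1.17.1, pandas 2.3.3, statsmodels 0.14.6), with Benjamini-Hochberg adjustment over 8 contrasts and a threshold of 0.05. The steps were tested on simulated data. Named regions are the 5 smallest q and 5 highest ratios (at least 20 input tags) of each domain, the widest, and those beside the borders. Alternatives were other windows, rank limits, widths, reference stretches and clusters, and leaving out the widest region.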

Additional observations from a re-analysis of the deposited data

How the results depend on the processing

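No paired analysis was possible because the list merges the libraries, whose replicate numbers 1 and 2 occur in both ChIP and input, and leaving out a replicate was impossible likewise. Of 64 alternatives (47 planned, 17 chosen after the data were seen), 51 kept direction and side of the threshold. On the log2 scale, the density of the left domain (-0.57) failed the threshold among the 3857 best-ranked regions (-0.23), the 1928 best-ranked (-0.16) and without the step from 5.0 to 5.5 Mb (-0.35), and stood at 0.0126 under q 1e-10. That of the right domain passed in all 17, at 0.496 to 0.619-fold. The ratio of the left domain (0.10) no longer passed with no covariate (0.0443), at least 20 input tags (0.0993), without the widest region (0.0905), in the best-ranked 3857 (0.0803) or against the flanks (0.0746). Its input density (0.19) passed per width alone (0.23), and its width (-0.14) in the best-ranked 3857 (-0.48). Input density of the right domain, not called, was -0.06 as reported and 0.0586 in regions of at least 500 bp. The summed ratio of the left domain was 2.84 without the widest region. Apart from the settings that leave regions or windows out, the cause was not tested. Precision is lowest at narrow regions, which have few tags.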
